A study of Mus musculus with 5 samples.

Results

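The regions described here are ZFP541 ChIP-seq regions that lie where an end of exactly 1 protein-coding gene and an end of a long non-coding RNA (lncRNA) gene come close together. ZFP541 is a germ cell protein with zinc fingers. Peaks of the 2 wild-type ZFP541 libraries that shared at least 1 bp were joined, joined regions with a peak in the knockout library were removed, and the summit of the widest replicate 1 peak had to lie within 1 kb of both ends on chromosomes 1 to 19 (mm10). These steps left 478 of 5254 ZFP541 regions on these chromosomes (9.1%, 95% exact binomial interval 8.33 to 9.91). Such intervals are Clopper-Pearson and cover counting error only. The rule used the presence and place of peaks and the gene table, and not the height of the peaks. Chromatin came from the testes of adult mice (C57BL/6), from which cells enriched in pachytene and diplotene spermatocytes had been taken by STA-PUT sedimentation. The 3 peak lists came from WT cells with the ZFP541 antibody (2 libraries) and from Zfp541-/- cells with the same antibody (1 library), and the 2 WT input libraries were not analysed here. Peak lists hold no expression values, so the purity of the cells could not be checked. Whether the replicates came from separate animals is not stated in the labels, and the read depth is unknown.

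Promoters of mammalian genes that are rich in CpG are often transcribed in both directions, so a protein-coding gene and a lncRNA gene can start back to back from a shared stretch of DNA. Such pairs are called head to head or divergent. ZFP541 binds KCTD19 and the histone deacetylases HDAC1 and HDAC2 in spermatocytes, which pass through pachytene and diplotene, the long stages of meiotic prophase in which paired chromosomes recombine and then begin to separate. Many lncRNA genes in the mouse are known from testis libraries.

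The promoter windows of the 6 highest-ranked coding genes with a sequence in the table are printed to show what the start sites at the strongest of these regions look like. Each runs from 250 bases before to 50 after a RefSeq start of the gene (GRCm38.p6, the assembly of mm10), on the strand of the gene, from 5′ to 3′. Capitals mark exact matches, on either strand, to 9 short motifs, mostly the GC box here, whose letters are spelled out with their shares further on.
Irf2bp2, chr8:126593937-126594236 (-): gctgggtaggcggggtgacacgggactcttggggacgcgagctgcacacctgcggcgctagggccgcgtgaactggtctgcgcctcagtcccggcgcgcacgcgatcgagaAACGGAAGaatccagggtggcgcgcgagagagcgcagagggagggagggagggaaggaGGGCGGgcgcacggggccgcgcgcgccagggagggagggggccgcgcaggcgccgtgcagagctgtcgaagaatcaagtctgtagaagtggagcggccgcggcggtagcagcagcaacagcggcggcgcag
Abhd17c, chr7:84151844-84152143 (-): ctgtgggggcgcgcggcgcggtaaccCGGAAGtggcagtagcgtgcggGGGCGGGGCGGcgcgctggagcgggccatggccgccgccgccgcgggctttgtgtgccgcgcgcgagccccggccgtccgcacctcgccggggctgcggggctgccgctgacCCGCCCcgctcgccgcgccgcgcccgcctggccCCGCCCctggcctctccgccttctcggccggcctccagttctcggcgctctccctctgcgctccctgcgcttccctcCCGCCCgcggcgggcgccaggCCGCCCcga
Mex3b, chr7:82867083-82867382 (+): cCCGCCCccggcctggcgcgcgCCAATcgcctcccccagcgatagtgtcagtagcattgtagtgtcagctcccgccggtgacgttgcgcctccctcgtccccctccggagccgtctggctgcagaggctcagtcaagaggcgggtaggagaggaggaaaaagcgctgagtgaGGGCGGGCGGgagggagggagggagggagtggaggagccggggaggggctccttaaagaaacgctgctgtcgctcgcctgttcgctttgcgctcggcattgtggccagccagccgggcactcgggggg
Pcsk6, chr7:65861886-65862185 (+): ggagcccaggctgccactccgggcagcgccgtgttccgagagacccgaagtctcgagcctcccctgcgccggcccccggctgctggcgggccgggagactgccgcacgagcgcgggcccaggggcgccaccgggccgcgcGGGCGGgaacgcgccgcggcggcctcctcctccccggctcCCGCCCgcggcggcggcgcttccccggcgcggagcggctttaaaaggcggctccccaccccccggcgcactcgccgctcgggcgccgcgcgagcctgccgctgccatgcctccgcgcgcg
Glcci1, chr6:8509350-8509649 (+): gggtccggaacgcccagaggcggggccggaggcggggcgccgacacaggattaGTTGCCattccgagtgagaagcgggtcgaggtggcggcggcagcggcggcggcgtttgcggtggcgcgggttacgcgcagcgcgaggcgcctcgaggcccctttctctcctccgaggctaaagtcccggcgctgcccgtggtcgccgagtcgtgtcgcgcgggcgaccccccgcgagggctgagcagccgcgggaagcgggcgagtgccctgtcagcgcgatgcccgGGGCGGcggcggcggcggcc
Ncl, chr1:86359406-86359705 (-): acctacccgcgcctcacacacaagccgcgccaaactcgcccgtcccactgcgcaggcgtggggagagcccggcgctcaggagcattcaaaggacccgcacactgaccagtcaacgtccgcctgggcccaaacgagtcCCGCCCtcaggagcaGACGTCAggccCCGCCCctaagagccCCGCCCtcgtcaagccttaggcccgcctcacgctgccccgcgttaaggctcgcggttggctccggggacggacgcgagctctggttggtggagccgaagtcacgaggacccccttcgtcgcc
These windows held 39, 52, 27, 52, 50 and 33 CpG dinucleotides in that order. The annotated start of the divergent lncRNA lay inside 4 of them: at base 4 of the Abhd17c window, base 214 for Mex3b, base 157 for Pcsk6 and base 122 for Ncl, counted from the 5′ end. The summit itself fell inside the printed letters for Pcsk6 and Glcci1 only, as given with the values.

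Enrichment at the 478 regions spanned a wide range, below the highest folds of all regions, 24.5 and 26.3. The fold enrichment over background that the authors' peak caller gave was read as the highest peak of the region in each replicate. Its lowest, median and highest values were 1.92, 5.72 and 19.1 in replicate 1 and 1.55, 6.38 and 20.8 in replicate 2. Replicate 2 was the higher of the replicates at 286 regions (59.8%), against 3113 of all 5254 regions (59.3%). Across the 478 regions the log2 folds of the replicates had a Pearson correlation of 0.71, a description of 1 pair of libraries over regions that are not independent replicates. A fold of at least 10 in both replicates was found at 41 regions. The −log10 q of the strongest peak was at least 5 in both replicates at 275 regions (57.5%, 53.0 to 62.0), where all regions gave 52.8%. Width was 217 bp at the narrowest region, 1155 bp at the median and 4570 bp at the widest. At least 2 kb was covered by 83 regions (17.4%, 14.1 to 21.1), against 14.5% of all regions and 17.2% of regions inside coding gene bodies. Fold and width went together, with Spearman correlations across regions of 0.65 in replicate 1 and 0.69 in replicate 2.

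**Figure D1:**
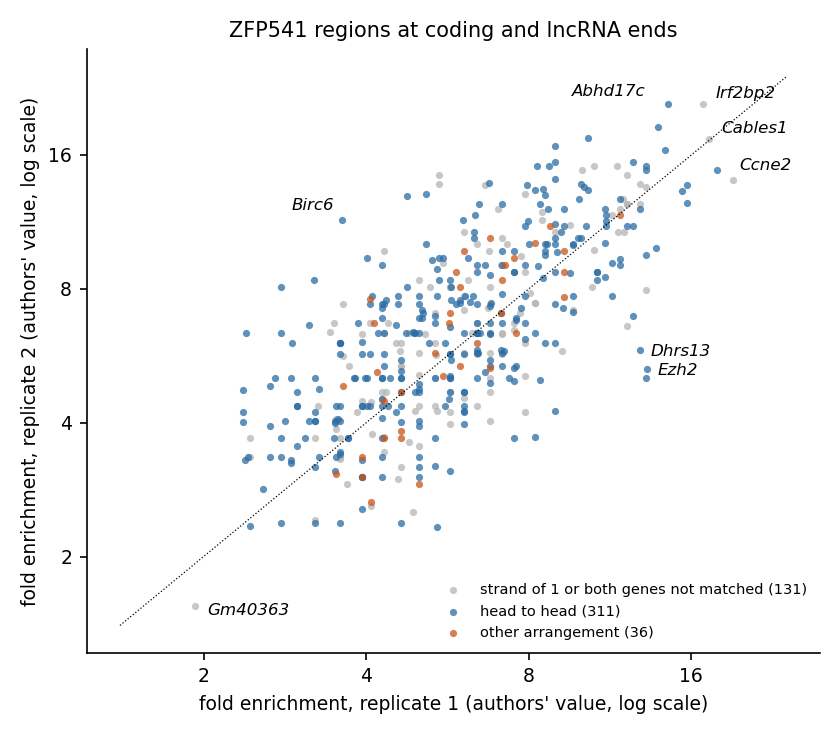
Fold enrichment of each of the 478 regions in replicate 1 (horizontal) and replicate 2 (vertical), both on log scales, coloured by how the coding and the lncRNA gene are arranged; the dotted line marks equal folds. Head-to-head pairs (311 points) and pairs whose strand was not matched (131 points) spread over the same range, and Birc6, Ezh2 and Dhrs13 lie far from the line.

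Regions were ranked by the mean of their percentiles of fold in the 2 replicates, among all 5254 regions. Irf2bp2, which encodes a transcriptional corepressor, had the highest rank, with folds of 16.8 in replicate 1 and 20.8 in replicate 2 over 3989 bp (chromosome 8, 126591780 to 126595768). Its summit lay 762 bp outside the coding gene and inside the lncRNA gene Gm31546. Cables1, an adaptor protein of cyclin-dependent kinases, followed with 17.2 and 17.4 beside Gm6277 (chromosome 18, 11838703 to 11841344). Both genes were in the top 2% of regions in each library. The depalmitoylating enzyme gene Abhd17c had 14.5 and 20.8 in a region of 1631 bp beside LOC117997403 (chromosome 7, 84150758 to 84152388), with the summit 289 bp inside the coding gene. Mex3b, an RNA-binding protein gene, had 13.9 and 18.5 beside Gm36584, whose start is 37 bp away (chromosome 7, 82865368 to 82868187). Here the summit was 903 bp upstream of the coding start and 866 bp inside the lncRNA gene. The convertase gene Pcsk6 had 17.9 and 14.8 beside Gm20684, 94 bp away (chromosome 7, 65859929 to 65863801), with the summit 77 bp inside the lncRNA gene. The summit was thus on the coding side at Abhd17c and on the lncRNA side at Mex3b and Pcsk6.

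Glcci1 had folds of 14.3 and 16.4 beside A430035B10Rik (chromosome 6, 8508743 to 8511361). Its summit lay between the starts, 174 bp from the coding one and 265 bp from the other, and so inside neither gene. The cyclin E2 gene Ccne2, which acts at the start of DNA replication, had the highest replicate 1 fold of all 478 regions, 19.1, and 14.0 in replicate 2 (chromosome 4, 11189831 to 11192080), where it overlaps A630034I12Rik. The nucleolin gene Ncl, a major nucleolar protein, had 13.2 and 15.1 beside C130036L24Rik, 129 bp away (chromosome 1, 86357967 to 86360416). Ncl shared its replicate 1 fold with Klf4, a zinc finger transcription factor, which had 14.8 in replicate 2 beside Gm12506 (chromosome 4, 55530994 to 55533210). Summits at both lay inside the coding gene, at 366 bp and 141 bp from the start. The insulin receptor substrate gene Irs2 had the widest region of this leading set, 4567 bp, with 15.7 and 13.7 (chromosome 8, 11005623 to 11010189). It overlaps 9530052E02Rik, whose start is 1079 bp away, and the summit lay in both genes. Gse1, whose product is found with HDAC-containing CoREST complexes, had 15.4 and 13.3 beside A330074K22Rik (chromosome 8, 120227571 to 120231485). The deubiquitinase gene Otud7a had 12.5 and 15.4 beside 4930554H23Rik (chromosome 7, 63444068 to 63446254), with the summit 9 bp from the coding start. The lowest −log10 q among these 12 regions was 27.3, that of Otud7a in replicate 1.

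At the other end of the ranking the peaks were close to the limit of the lists. Gm40363, a predicted coding gene, had the lowest rank, with folds of 1.92 and 1.55 beside Gm52861 and −log10 q values of 0.97 and 0.11. Leng8 had 2.44 and 2.34 beside D030047H15Rik. The ephrin receptor gene Ephb2 had 2.78 and 2.38 beside Gm31536, and the iron-sulfur cluster assembly gene Isca1 had 2.58 and 2.84 beside Etohd2. None of these 4 reached a q-value of 0.05 in both libraries.

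Replicates placed some regions far apart. The inhibitor of apoptosis gene Birc6 had a fold of 3.60 in replicate 1 and 11.4 in replicate 2 beside Gm31645, which puts it at the percentiles 17.2 and 89.0. The aminopeptidase gene Npepps had 2.78 and 8.06 beside Gm11592, and the deubiquitinase gene Mindy2 had 3.20 and 8.39 beside Gm31872. In the opposite direction, the methyltransferase gene Eef2kmt had 8.21 and 3.71 beside Gm15983, and Gosr2, a SNARE protein gene of the Golgi, had 7.50 and 3.69 beside C130046K22Rik. With 1 value per library these differences carry no test.

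Most of these regions sat at starts on opposite strands. Strand was known from the RefSeq promoter table for both genes at 347 of 478 regions (72.6%), and for the other 131 the arrangement is not given. Of the 347, 311 (89.6%, 85.9 to 92.6) had the start of the coding gene and the start of the lncRNA gene near the summit on opposite strands. All 311 are counted as head to head here. Gene bodies were apart at 179 of them and overlapped at 132, where the starts are thus not back to back. Starts on the same strand were found at 13 regions, a coding start with the far end of a lncRNA gene at 17, a far end of a coding gene with a lncRNA start at 5, and far ends of both at 1. The last is the region between Fam120a and Phf2os1, with folds of 4.64 and 4.70. The coding end was the start at 377 of 383 regions with coding strand (98.4%), and the lncRNA end was the start at 363 of 384 (94.5%). Median folds were 5.71 and 6.38 for head-to-head pairs and 5.96 and 6.38 for a coding start with a lncRNA far end. At the 5 regions of a coding far end with a lncRNA start they were 4.09 and 3.36, too few for a statement on the arrangement.

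The rule, with a summit within 1 kb of both ends, itself limits how far apart the ends can be. The nearest coding and lncRNA ends were a median of 179.5 bp apart, with quartiles of 61.25 and 417.75 bp, and at most 100 bp apart at 178 regions (37.2%). Among the 311 head-to-head regions alone, the starts were at most 100 bp apart at 133. Of all 1120 head-to-head pairs with starts within 2 kb, with or without a region, 371 were at most 100 bp apart. Gene bodies of the head-to-head pairs were apart at 179 regions, with a median gap of 109 bp, and overlapped at 132, with a median of 249.5 bp between the starts. Folds hardly differed between these kinds, with medians of 5.71 and 6.71 for bodies apart and 5.85 and 6.26 for overlapping bodies. The higher kind was thus another one in each replicate.

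All coding and lncRNA pairs with ends within 2 kb of each other were then counted, with or without a region. A region with its summit within 1 kb of both ends was found at 317 of 1120 head-to-head pairs (28.3%, 25.7 to 31.0), 24 of 332 pairs of a coding start and a lncRNA far end (7.23%, 4.69 to 10.6), 10 of 216 pairs of a coding far end and a lncRNA start (4.63%, 2.24 to 8.35) and 3 of 280 pairs of far ends (1.07%, 0.222 to 3.10). These counts include pairs near a further coding gene. Starts on the same strand had 20 of 48 (41.7%, 27.6 to 56.8). By distance between the starts, the share of head-to-head pairs was 36.1% up to 100 bp, 32.8% from 101 to 250 bp, 36.4% from 251 to 500 bp, 19.9% from 501 to 1000 bp and 5.11% from 1001 to 2000 bp. At the longer distances fewer places for a summit lie within 1 kb of both starts, so the rule itself bears on the fall. Median folds of the head-to-head regions over the same 5 distance classes, from the shortest, were 5.71, 6.02, 5.73, 5.07 and 6.07 in replicate 1 and 6.38, 6.71, 6.38, 6.06 and 6.06 in replicate 2.

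**Figure D2:**
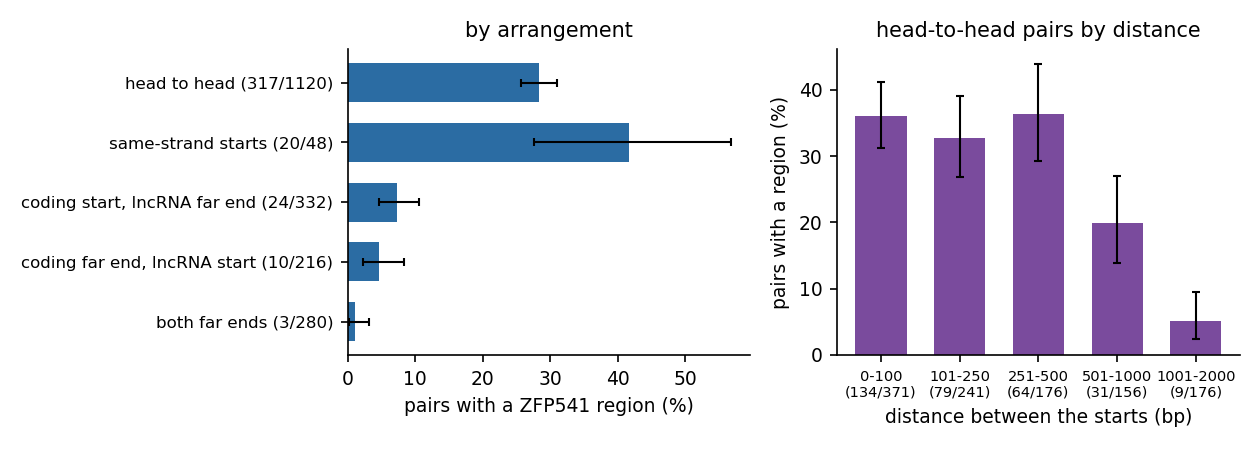
Share of all coding and lncRNA gene pairs on chromosomes 1 to 19 that have a ZFP541 region within 1 kb of both ends, by arrangement (left) and, for head-to-head pairs, by the distance between the starts (right). Bars are percentages, error bars are 95% exact binomial intervals, and brackets give pairs with a region and all pairs; head-to-head pairs stand at 28.3% and pairs of far ends at 1.07%.

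Summits leaned to the coding side of pairs whose genes do not overlap. Of the 179 head-to-head regions whose genes do not overlap, the replicate 1 summit lay inside the coding gene at 125 (69.8%), inside the lncRNA gene at 31 (17.3%) and between the starts at 23 (12.8%). Replicate 2, whose summits the rule did not use, gave 126 (70.4%), 29 (16.2%) and 24 (13.4%). Its summit was that of the highest-fold peak rather than the widest, and its peaks overlap those of replicate 1 by the rule. Where the genes overlap, the replicate 1 summit lay in the coding gene alone at 65 of 132 regions, in the lncRNA gene alone at 16 and in both at 51. Replicate 2 gave 59, 27 and 46. By distance, the replicate 1 summit was nearer the coding start at 142 of the 179 regions without overlap. With overlap this held at 46 of the 132. For a summit in 1 gene alone, the nearer start follows from the arrangement. It is the start of that gene without overlap and the start of the partner with overlap. The counts by distance are thus largely fixed by those above. Starts here are the outermost annotated bases of a gene, so a summit at an inner start counts as downstream. Relative to the coding start, the summit was a median of 180 bp into the gene in replicate 1 and 174 bp in replicate 2, and it was downstream at 293 of 379 regions (77.3%, 72.8 to 81.4) and 284 (74.9%). Regions at a lone coding gene were alike in this, with medians of 196 and 190 bp and 80.4% and 81.4% downstream. Regions at 2 or more coding ends had medians of 106.5 and 118.5 bp. Against the lncRNA start the summit was a median of 195 bp upstream. It came within 250 bp of the coding start at 209 of 377 regions (55.4%, 50.3 to 60.5) and within 250 bp of the lncRNA start at 148 of 363 (40.8%, 35.7 to 46.0).

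**Figure D3:**
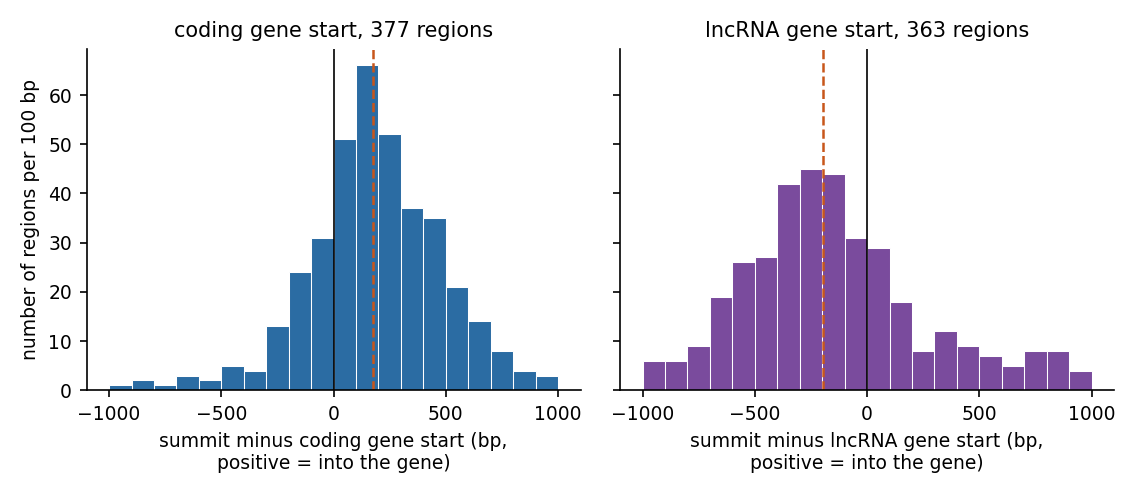
Position of the replicate 1 summit relative to the annotated start of the coding gene (left, 377 regions) and of the lncRNA gene (right, 363 regions), in bp, with positive values inside the gene; bars count regions per 100 bp, the solid line is the start and the dashed line the median. The medians lie at 177 bp inside the coding gene and at -195 bp, which is upstream of the lncRNA gene. Starts are the outermost annotated bases.

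Coding starts were then grouped by their neighbour. Of 1244 coding starts with a lncRNA end and no other coding end within 1 kb, 379 had a summit within 1 kb (30.5%, 27.9 to 33.1). Starts without a coding or lncRNA neighbour had 2164 of 12616 (17.2%, 16.5 to 17.8), and starts near another coding end had 778 of 2597 (30.0%, 28.2 to 31.8). Peaks of replicate 1 alone gave 34.6%, 19.8% and 34.4% in that order, and peaks of replicate 2 alone 38.6%, 22.6% and 43.3%. CpG content moved with the neighbour: a window was counted as CpG-rich with at least 50% G+C and a ratio of observed to expected CpG of at least 0.6, and this held for 65.1% of starts with a lncRNA neighbour, 40.6% of lone starts and 71.2% of starts near another coding end. Among CpG-rich starts alone the shares with a region were 42.8% (39.4 to 46.3), 36.9% (35.6 to 38.3) and 35.1% (32.9 to 37.3). Among other starts they were 7.37%, 3.65% and 17.2%. Seen from the other gene, lncRNA starts with a coding end within 1 kb had a region at 371 of 1237 (30.0%), and lncRNA starts without one at 163 of 8054 (2.02%, 1.73 to 2.36). No test between these groups was run, since genes of 1 pair of libraries are not replicates, and the part of CpG content in the difference was not tested.

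Letters of the promoters were those of CpG islands on both sides of the pair. The promoter table had a window within 1 kb of the summit for 364 coding and 357 lncRNA genes of these regions. Genes with a region are counted with 1 window each. The sets without a region and of all genes hold every listed window, such as 15769 windows of 13028 coding genes without a region. The motif shares below use the same sets, so the comparison is not fully like for like. Of the coding windows, 347 (95.3%, 92.6 to 97.3) were CpG-rich, against 1913 of 2107 at lone coding genes with a region (90.8%, 89.5 to 92.0) and 5889 of 15769 coding windows without a region (37.3%). Of the lncRNA windows, 313 (87.7%, 83.8 to 90.9) were CpG-rich, against 1370 of 11311 lncRNA windows in all (12.1%). Median G+C was 69.5% in the coding and 70.3% in the lncRNA windows, and the median CpG ratio 0.914 and 0.912. The 2 windows of a close divergent pair overlap, by an amount that depends on the distance between the starts, so they are not separate observations.

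Of the short motifs, the GC box stood out in frequency. The GC box GGGCGG, read by SP and KLF factors, was in 81.3% of the coding and 76.5% of the lncRNA windows, 79.1% of windows at lone coding genes with a region, 40.6% of coding windows without one and 47.0% of all coding windows. TATAAA was rare, at 3.57% and 3.36% against 14.6% of coding windows without a region and 12.7% of all coding windows. The ETS core CGGAAG was in 28.3% of the coding windows, 28.8% at lone coding genes and 43.2% at regions of 2 or more coding ends, with 21.5% of all coding windows. The MYB core AACGG was in 26.6% and 25.8% of the coding and lncRNA windows, with 18.7% of all coding and 14.5% of all lncRNA windows. CCAAT, the NF-Y box, was in 38.2% of the coding windows and 38.1% of all coding windows. The E box CACGTG had 12.1% against 7.89% of all coding windows, the NRF1 core GCGCATG 8.79% against 4.84%, the CRE letters TGACGTC 7.14% against 3.92% and the RFX core GTTGCC 10.4% against 12.2%. Both strands were searched, AACGG and CGGAAG can share bases as they do in the Irf2bp2 window, and the E box reads alike on both strands. A match is only a description of the letters, and the part of the high G+C in these shares was not tested.

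**Figure D4:**
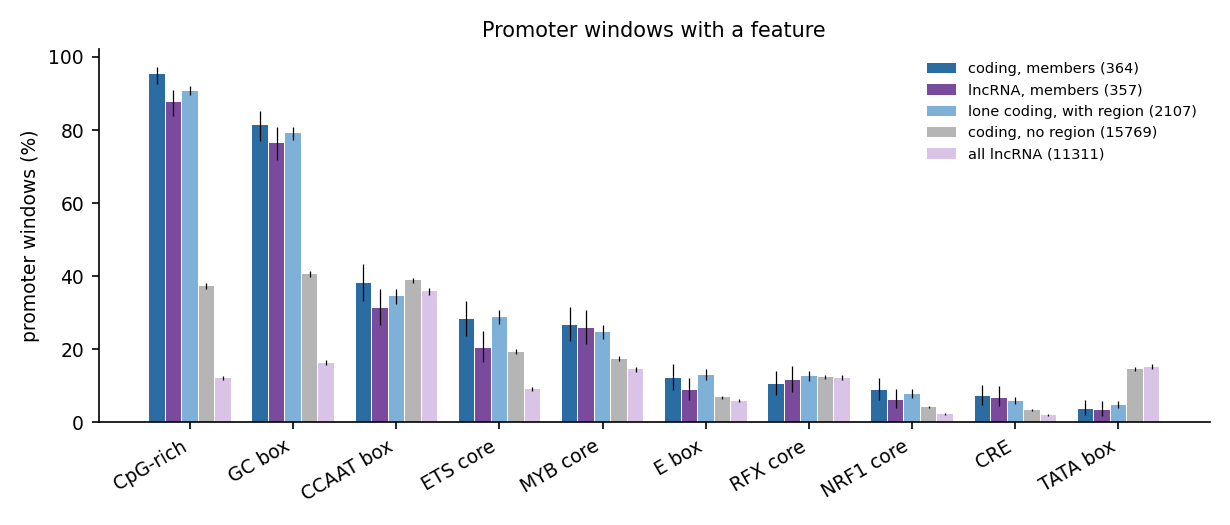
Percentage of promoter windows (250 bases before to 50 after a RefSeq start) that are CpG-rich or hold a motif on either strand, for coding and lncRNA genes of the 478 regions, lone coding genes with a region, coding genes without a region and all lncRNA genes; error bars are 95% exact binomial intervals and brackets in the legend give numbers of windows. CpG-rich windows and the GC box stand highest at genes with a region, and the TATA box stands lowest there.

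Coding genes at these regions numbered 472, which is 2.3% of the 20560 protein-coding genes on these chromosomes. Cul3, Jph3, Phlpp1, Ptprt, Sap30l and Fam120a each had a pair of regions. Of 464 genes in 13 lists of pathways, 22 (4.74%) were at such a region. The ubiquitin system, whose E1, E2 and cullin proteins attach ubiquitin to targets, had the most, 8 of 39 genes (20.5%). Of the 39, 12 had a lncRNA end within 2 kb, against 2849 of all 20560 coding genes. A summit within 1 kb of an end was found at 20 of the 39 (51.3%, against 20.6% of all coding genes). The list was thus also high for ZFP541 regions of any kind. The cullin gene Cul5 had folds of 11.1 and 11.1 beside Gm16124, the E2 enzyme gene Ube2d3 had 11.4 and 9.13 beside 4930539J05Rik, and Ube2q1 had 7.14 and 9.06 beside 4632404H12Rik. The others were Ube2g1, Ube2n, Cul3, Ube2h and Ube2j1, and the 7 with strand known for both genes were all head to head.

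Genes of chromatin lists were also among them. Among 29 genes of ZFP541 and class I HDAC complexes, 18 had a summit within 1 kb of an end (62.1%), and 9 had a lncRNA end within 2 kb. The share with such a summit was alike for histone methylation and demethylation, 25 of 41 genes (61.0%). It was 33.6% over all lists together and 20.6% over all coding genes. At the regions described here were 3 of the 29 (10.3%, against 2.3% of all coding genes): the methyl-CpG binding gene Mbd2 (4.55 and 6.04), the corepressor gene Rcor3 (4.01 and 4.36) and Sap30, a SIN3 complex subunit (4.29 and 3.69). Histone methylation and demethylation had 2 of 41 (4.88%). The H3K27 methyltransferase gene Ezh2 had 13.3 in replicate 1 and 5.29 in replicate 2 beside F830010H11Rik, and Kmt5c had 4.29 and 3.36. Cell cycle genes had 2 of 39 (5.13%), Ccne2 and Hspa2 (7.86 and 4.23), the latter a chaperone of the meiotic spindle and synaptonemal complex. Splicing genes had 2 of 41 (4.88%), Ptbp1 (7.74 and 9.48) and Srsf3 (5.42 and 7.72). The counts of 2 genes are near the 4.74% of all lists together and are no result about those lists.

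Counts in the germ cell lists were near the 2.3% of all coding genes and are no result about those lists. Pachytene and spermatid transcription had 1 of 29 (3.45%), Crem, a regulator of spermatid genes (3.92 and 6.32), the piRNA pathway 1 of 25 (4.0%), Tdrkh (2.40 and 6.38), and DNA damage response 1 of 40 (2.5%), the ubiquitin ligase gene Rnf8 (9.29 and 8.74). None of 42 meiotic prophase genes, 29 genes of sperm structure, 43 ribosomal protein genes or 18 genes of Sertoli, Leydig and peritubular cells was at such a region, and at a share of 2.3% lists of these sizes would hold few such genes or none. Of the meiotic prophase genes 8 had a summit within 1 kb of an end, and 4 of the 42 had a lncRNA end within 2 kb. Among developmental transcription factors, 27 of 54 had a lncRNA end within 2 kb, against 2849 of all 20560 coding genes. Of the 54, 2 (3.70%) were at such a region, Six2 (6.43 and 6.38) and Hoxa7 (3.93 and 3.36). A summit within 1 kb of an end was found at 7 of them (13.0%, against 20.6% of all coding genes). The list does not hold every gene of this kind. Nkx2-4 (10.3 and 17.5) and Otx1 (6.43 and 10.1), for example, were at such a region but are not in it. These list shares are counts and carry no test.

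Most lncRNA partners carry only clone or model names. Gene models named Gm made up 289 of the 478 nearest partners (60.5%), Riken clones 141 (29.5%) and genes named os, for opposite strand, 24 (5.02%), against 80.1%, 14.2% and 1.63% of all 12324 lncRNA genes. No host gene of snoRNAs or miRNAs (Snhg genes and the like) was among them, and 3 of 34 such hosts had a region within 1 kb of an end (8.82%, against 5.81% of all lncRNA genes), too few for a statement on hosts. The os group had lower folds than the 478 regions as a whole, with medians of 4.82 and 4.87, and 20 of its 21 pairs with strand were head to head. Fzd10, a Wnt receptor gene, led with 11.7 and 10.8 beside Fzd10os, then the H3K9 demethylase gene Phf2 with 13.2 and 9.54 beside Phf2os1, and the diacylglycerol kinase gene Dgke with 7.97 and 11.4 beside Dgkeos. Dhrs13 had 12.9 and 5.83 beside Dhrs13os. The transcription factor gene Jun had 6.07 and 4.24 beside Junos, and the imprinted deiodinase gene Dio3 had 6.43 and 5.74 beside Dio3os. At the low end, Phtf1, known for its expression in male germ cells, had 2.42 and 3.36 beside Phtf1os. These os genes were named after their values were seen.

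Height at these regions was close to that at lone coding genes. Median folds at the 2778 regions of 1 lone coding gene were 5.69 and 6.34, beside 5.72 and 6.38 here. At the 531 regions of 2 or more coding ends they were 5.31 and 5.71, and at the 337 regions outside coding genes 4.29 and 4.36. Median widths were 1095.5, 973 and 790 bp in that order, beside 1155 bp. The 1130 regions inside coding gene bodies had median folds of 5.36 and 5.71 and a median width of 1094 bp. The medians here and at lone coding genes thus lay closer together than the medians of the replicates, and no test over regions was run. By chromosome, these regions made up between 6.88% (chromosome 16, 11 of 160) and 12.7% (chromosome 6, 34 of 267) of all regions. Regions whose farther end was 901 to 1000 bp from the summit numbered 22, with median folds of 4.46 and 6.38, and the 14 regions with 1 coding end whose lncRNA end was just outside, at 1001 to 1100 bp, had 5.71 and 5.94.

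No region of this kind was lost to the knockout filter. Of 5382 joined regions on these chromosomes, 128 (2.38%) touched a peak of the knockout library, and of the 478 that met the rule on gene ends none did (exact interval 0 to 0.769%). The knockout list held 256 peaks, the wild-type lists 8236 and 10371, and with 1 knockout library of unknown depth a missing peak does not show that the site was free of signal.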

How the data were processed

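ZFP541 ChIP-seq peak lists of 2 wild-type libraries and 1 knockout library were used. MACS2 2.2.6, Bowtie2 2.3.5, deepTools 3.5.0, cutadapt 2.6, Picard and SAMtools 1.10 are named with mm10 in the submitters' processing notes, while for peak calling the settings, the control and the limit were not given in the sources used here. Peaks stand in a deposited list per library, with the authors' fold enrichment (a ratio over background), −log10 p and −log10 q, a score that is −log10 q times 10 without decimals, and the summit offset. Depth is unknown, so no precision can be given per peak.

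From these, regions were joined (overlap of at least 1 bp), filtered and matched to the RefSeq table of GRCm38.p6 (20560 protein-coding and 12324 lncRNA genes on chromosomes 1 to 19). The 340 gene entries before 3 Mb, where mm10 has the assembly gap at chromosome starts, were left out, as were X and Y. Gene ends are the outermost annotated bases. Strand came from the RefSeq promoter table, which held 16457 and 9291 of these genes; at 73.4% of its genes a listed start equals the outermost 5′ base. Intervals are 95% exact binomial. No test between groups was run, since regions of a library are not replicates.

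Named were the 12 highest and 4 lowest regions by mean percentile of fold, the 5 with the largest difference in percentile, and up to 3 members of each of 13 gene lists; other names were chosen after their values were seen. The rule of the regions, the lists and the motifs were chosen with earlier results of these data known. Alternatives covered overlap, q-value, window, summit, knockout filter, each replicate alone and the entries before 3 Mb. The CpG-rich class, the distance classes, the side of the replicate 2 summit and the shares from each replicate alone were added after values were seen. The joining and class steps were tested on simulated data. Scripts ran in Python 3.11.15 with scipy 1.17.1, pandas 2.3.3, numpy 2.4.6 and, for plots, matplotlib 3.10.9.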

Additional observations from a re-analysis of the deposited data

How the results depend on the processing

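Of 61 values of 7 results recomputed under 9 alternatives, 44 counted as unchanged and 17 as moved. The limit was 0.46 for median folds, 143 bp for width and 4.6 bp for the distance between ends. It was wide for the number of regions, where 342 under reciprocal overlap and 656 with replicate 2 alone counted as unchanged. Keeping knockout peaks and keeping entries before 3 Mb left every result at its main value. The first could not move any, since none of the 478 regions touched a knockout peak. The 44 thus overstate how far the results were tested. The number of regions fell from 478 to 274 when peaks needed a −log10 q of 5 or more and to 304 with a window of 500 bp, and was 596 and 656 with replicate 1 or replicate 2 alone. Median folds of 5.72 and 6.38 became 6.43 and 7.05 under a reciprocal overlap of 50% and 7.50 and 8.43 with that q-value limit, which keeps higher peaks by construction. With each replicate alone they were 5.0 in replicate 1 and 5.04 in replicate 2. Median width, 1155 bp, was 1506.5 bp at the stricter q-value and 612.5 and 815 bp with replicate 1 or 2 alone, where no peaks are joined. The median distance between the ends, 179.5 bp, was 188.5 bp under reciprocal overlap, 107 bp with the 500 bp window, 288.5 bp with the 2 kb window, and 183 to 189.5 bp with each replicate alone. The head-to-head share, 89.6%, was 92.6% with the 500 bp and 84.1% with the 2 kb window. The share of summits between the ends stayed between 24.3% and 29.3% under these alternatives. Other causes were not tested. A fold of a replicate that was left out has no value. No paired analysis was possible because the wild-type inputs, which share replicate numbers 1 and 2 with the ZFP541 libraries, have no peak list here, and the knockout has 1 library. Depth is unknown, so sites missing from a list may lie under its threshold, and 131 regions have no arrangement.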
